A study of Mus musculus with 6 samples.

Results

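The 10 genes described here carry out or regulate the making of fatty acids from acetyl-CoA. They are Acss2, Me1 and Acly, which supply acetyl-CoA and NADPH, Acaca and Fasn, which build the chain, Scd1, Scd2 and Elovl6, which desaturate or lengthen it, and the regulators Srebf1 and Thrsp. They were chosen by name for their role in the pathway, with earlier results of these data known. The gene lists named below were chosen with the same knowledge. Counts set beside the shares over all genes are therefore descriptive only. On the array, 21 of the 22690 probe sets carry one of these symbols alone. Each gene was read from its brightest probe set, so the members are 10 of the 12393 genes tested, and the other 11 probe sets were used as a check.

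RNA came from mouse mammary tumors after 21 days of treatment, 3 tumors from mice given vehicle and 3 from mice given a combination of VX680, miltefosine and WP1066. VX680 inhibits Aurora kinases, miltefosine is an alkylphosphocholine, and WP1066 inhibits JAK2 and STAT3. The labels used here state no strain, age, tumor model or dose. Whether each of the 3 tumors in a group is from its own mouse is not stated either, so the p-values measure only how far these samples differ, which may be technical. Each sample was hybridised to 1 Affymetrix array, and all values are log2 expression.

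Fatty acid synthesis starts from cytosolic acetyl-CoA, which ATP citrate lyase (Acly) makes from citrate and acetyl-CoA synthetase (Acss2) makes from acetate. Acetyl-CoA carboxylase (Acaca) turns it into malonyl-CoA, and fatty acid synthase (Fasn) assembles palmitate with NADPH that malic enzyme (Me1) and other dehydrogenases provide. Elovl6 lengthens palmitate and the stearoyl-CoA desaturases Scd1 and Scd2 put in a double bond. The transcription factor SREBP1, encoded by Srebf1, switches on much of the pathway, which is active in fat cells and in the milk-secreting epithelium of the mammary gland.

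The tissue label matched the arrays, since the milk protein gene Csn2 read between 13.83 and 13.93 on all 6 arrays and the epithelial keratin gene Krt8 between 12.40 and 12.67. Over all genes, 0 of 12393 (0%) passed limma's adjusted p of 0.05, the smallest adjusted p was 0.231, and 1275 genes had an unadjusted p under 0.05. None of the 10 members passed, and all their differences below are therefore values that did not pass the test. Skeletal muscle transcripts were most abundant in vehicle replicate 3 and drug replicate 1, and adipocyte transcripts in vehicle replicate 3 and drug replicate 2. The values on removal of either pair of arrays are given beside a member's difference where they move it by over 1.5 times.

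Both genes that make cytosolic acetyl-CoA, the malic enzyme gene and Thrsp read higher in every drug array than in every vehicle array. The log2 differences were 0.37 for Acss2, 0.37 for Me1, 0.26 for Thrsp and 0.14 for Acly, or 1.30-, 1.29-, 1.20- and 1.10-fold. Fasn, Acaca, Scd1, Scd2, Elovl6 and Srebf1 had overlapping groups. Groups that do not overlap, with drug higher, were found in 7.73% of all genes, and an unadjusted limma p under 0.05 with drug higher in 5.37%, while 4 of the 10 members met each criterion. Of the 4 at the unadjusted threshold, leaving out 1 array left 2 without vehicle replicate 1 or vehicle replicate 3, and 1 without drug replicate 1 or drug replicate 3. A muscle score in the model left 2, and removal of both muscle-rich arrays left 1. No test of the difference between members was run.

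**Figure D1:**
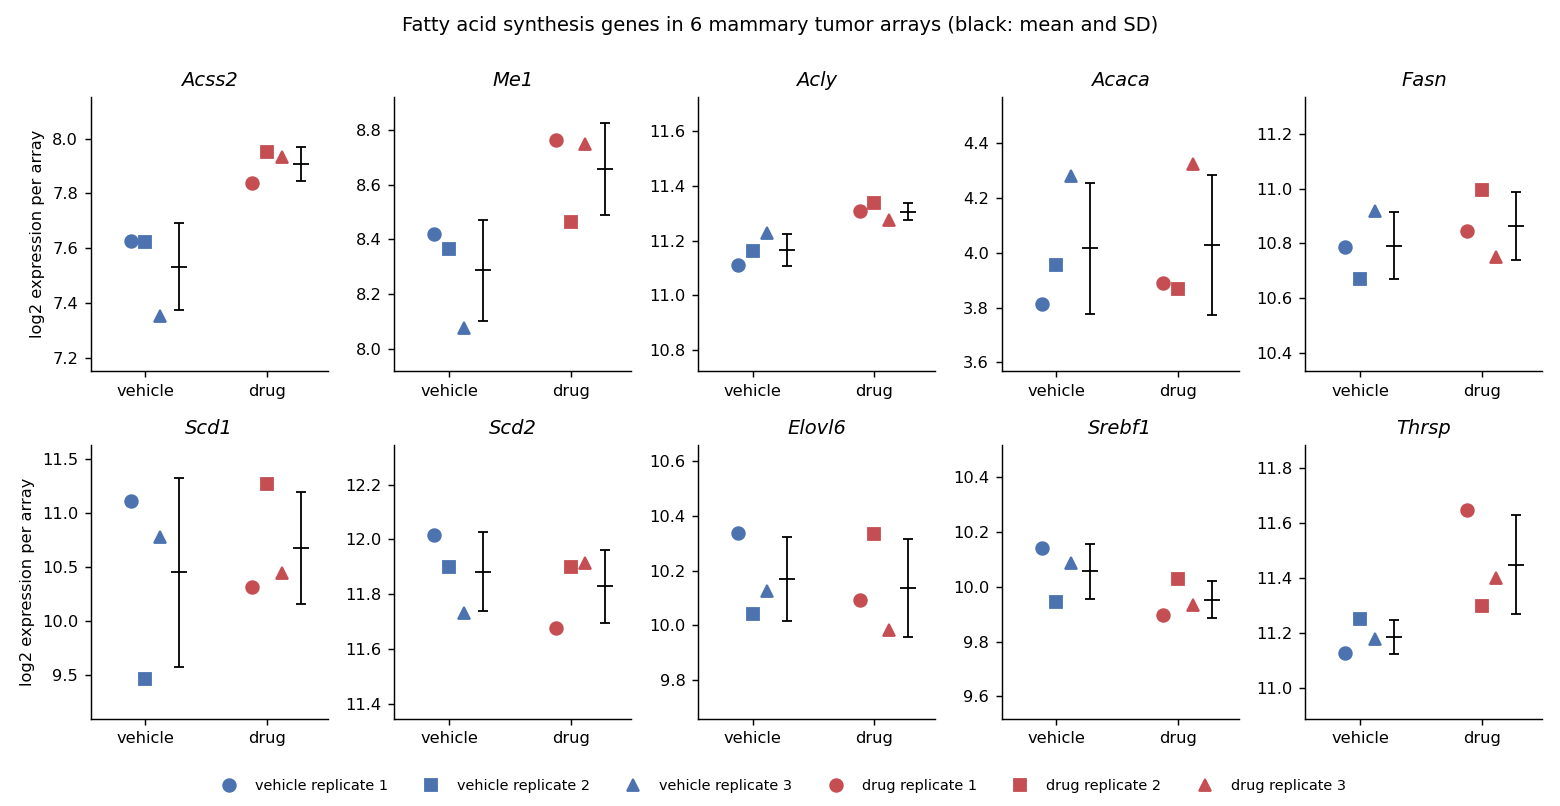
Log2 expression (vertical axes, each panel spanning at least 1 log2 unit) of the 10 genes in 3 vehicle arrays (blue) and 3 drug arrays (red), with marker shapes for replicates and black bars for mean and SD. In Acss2, Me1, Acly and Thrsp the red points lie above all blue points, while in the other 6 genes the groups overlap, with the widest scatter in Scd1.

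The start regions of these 4 genes are shown to let their sequence be compared with that of Fasn, the synthase gene whose groups overlapped. Each line gives the 150 bases just upstream of a RefSeq start site in GRCm38.p6, and capitals mark the CCAAT box, bound by NF-Y, and the GC box GGGCGG, bound by Sp1, on either strand. Me1 has 2 annotated start sites and the first is shown. The windows are chr2:155517893-155518042 (plus strand) for Acss2, chr9:86695915-86696064 (minus) for Me1, chr11:100528001-100528150 (minus) for Acly, chr7:97417551-97417700 (minus) for Thrsp and chr11:120824548-120824697 (minus) for Fasn.
Acss2: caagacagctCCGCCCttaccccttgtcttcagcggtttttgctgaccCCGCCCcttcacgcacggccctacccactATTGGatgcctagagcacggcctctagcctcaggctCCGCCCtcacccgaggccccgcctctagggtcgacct
Me1: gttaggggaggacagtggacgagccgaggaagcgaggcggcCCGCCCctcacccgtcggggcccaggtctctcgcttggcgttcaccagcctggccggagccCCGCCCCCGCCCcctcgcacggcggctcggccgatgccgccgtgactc
Acly: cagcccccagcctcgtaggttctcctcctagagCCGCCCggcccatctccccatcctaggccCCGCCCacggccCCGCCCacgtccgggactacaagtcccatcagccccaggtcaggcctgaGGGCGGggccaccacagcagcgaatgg
Thrsp: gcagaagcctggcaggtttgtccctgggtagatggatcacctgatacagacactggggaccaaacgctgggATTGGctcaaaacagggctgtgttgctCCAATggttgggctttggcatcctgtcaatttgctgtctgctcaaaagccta
Fasn: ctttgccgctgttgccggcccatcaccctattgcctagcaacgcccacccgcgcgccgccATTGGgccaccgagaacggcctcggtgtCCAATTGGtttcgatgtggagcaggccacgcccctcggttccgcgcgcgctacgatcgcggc

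The 4 genes did not share 1 arrangement of these letters. Within 250 bases upstream, Acss2 held 4 GC boxes and 1 CCAAT box, Me1 3 GC boxes, Acly 4 GC boxes, and Thrsp 2 CCAAT boxes and 0 GC boxes. Fasn held 3 CCAAT boxes, 2 of them overlapping on opposite strands, and 0 GC boxes. RefSeq start sites were at hand for 8 of the 10 members, 11 sites in all. Of these 6 held CCAAT and 5 held GGGCGG, against 33.8% and 32.7% of the 32851 start sites in the table. Neither TCACNCCAC, a form of the sterol regulatory element that SREBP binds, nor the E-box CACGTG was found at any of the 11, searched on both strands. They occurred at 1.05% and 6.02% of all start sites. These matches describe the letters in this window only.

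Acss2, the enzyme that captures acetate, had the smallest unadjusted p of the members. It read 7.63, 7.62 and 7.35 in vehicle and 7.84, 7.95 and 7.93 in drug arrays. The groups did not overlap, and the drug arrays were closer to one another than the vehicle arrays were. Means were 7.53 ± 0.16 and 7.91 ± 0.06 (SD, n = 3 each), a log2 difference of 0.37 ± 0.09 (SE) with limma's adjusted p = 0.343. The other Acss2 probe set gave 0.40 ± 0.12, again with groups that did not overlap. In all 16 alternatives run, the Acss2 difference kept its direction and an unadjusted limma p under 0.05, at 0.26 to 0.42, and its adjusted p lay between 0.231 and 0.565.

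Me1, which makes NADPH by turning malate into pyruvate, read 8.42, 8.36 and 8.08 in vehicle and 8.76, 8.46 and 8.75 in drug arrays. Drug replicate 2 lay just above vehicle replicate 1, and the other drug arrays stood further off. The log2 difference was 0.37 ± 0.12 (SE, n = 3 per group; limma adjusted p = 0.418), and the other probe set gave 0.38 ± 0.10 without overlap. Removal of both muscle-rich arrays gave an Me1 difference of 0.21.

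Acly, which splits exported citrate, read 11.11, 11.16 and 11.23 in vehicle and 11.31, 11.34 and 11.28 in drug arrays. The groups were narrow and adjacent, with SDs of 0.06 and 0.03. The log2 difference of 0.14 ± 0.05 (SE, n = 3 per group; limma adjusted p = 0.471) was the smallest of the 4. Of the 4 other Acly probe sets, those with mean levels of 10.60 and 8.84 gave 0.10 and 0.14 and did not overlap. The remaining 2, at mean levels of 2.64 and 2.20, where a signal may lie near background, gave 0.17, without overlap, and -0.01, with overlap.

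Neither gene of chain assembly differed beyond the spread of its arrays. Fasn, the multi-domain synthase, read 10.79, 10.67 and 10.92 in vehicle and 10.85, 10.997 and 10.75 in drug arrays, so that the groups interleaved. Its log2 difference was 0.07, with a 95% confidence interval from -0.15 to 0.29 (limma adjusted p = 0.833). The Fasn difference rested on single arrays, at 0.0069 without drug replicate 2, 0.0128 without vehicle replicate 2 and 0.14 without vehicle replicate 3. It was 0.14 on removal of both muscle-rich arrays. Acaca, the carboxylase of the committed step, read 3.81, 3.96 and 4.28 in vehicle and 3.89, 3.87 and 4.32 in drug arrays. Its 1 probe set lay near a level of 4, where values may be close to background, and the difference of 0.01 had an interval from -0.39 to 0.41. Its sign changed with single arrays left out, and removal of the muscle-rich or the adipocyte-rich pair gave 0.21 and 0.22.

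Scd1, the main desaturase of fat cells, was the most variable member. It read 11.11, 9.46 and 10.78 in vehicle and 10.32, 11.27 and 10.44 in drug arrays. Vehicle replicate 2 stood well below all others, and vehicle replicate 1 and drug replicate 2 were the highest, so the spread cut across the groups. The pooled SD within groups was 0.72, against a median of 0.10 over all genes. The log2 difference was 0.23 with an interval from -0.89 to 1.34 (limma adjusted p = 0.903), and leaving out vehicle replicate 2 turned it to -0.27. Leaving out drug replicate 2 gave -0.07, and leaving out vehicle replicate 1 gave 0.56. Removal of the muscle-rich pair gave 0.57 and removal of the adipocyte-rich pair 0.09. The second Scd1 probe set gave 0.44, with an interval from -0.51 to 1.39. It was again lowest in vehicle replicate 2 and highest in vehicle replicate 1 and drug replicate 2. The probe sets differed in vehicle replicate 3. There the probe set used read 10.78, above drug replicates 1 and 3, and the other read 7.70, below every drug array.

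Scd2, a desaturase of broader expression, was far steadier. It read 12.02, 11.90 and 11.73 in vehicle and 11.68, 11.90 and 11.91 in drug arrays, with overlapping groups. The log2 difference was -0.05 (interval -0.29 to 0.19), and the other 2 probe sets gave -0.12 and 0.06. Elovl6 read 10.34, 10.04 and 10.13 in vehicle and 10.09, 10.33 and 9.98 in drug arrays, again highest in vehicle replicate 1 and drug replicate 2. Its difference was -0.03 (interval -0.31 to 0.25), and its second probe set gave -0.11. Without the adipocyte-rich pair the differences were -0.16 for Scd2 and -0.15 for Elovl6. The Scd2 sign changed without vehicle replicate 1 (0.0138) or drug replicate 1 (0.0237), and the Elovl6 sign without vehicle replicate 1 (0.0531) or drug replicate 3 (0.0455).

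The regulators differed from each other in sign. Srebf1 read 10.14, 9.94 and 10.09 in vehicle and 9.90, 10.03 and 9.93 in drug arrays, with overlapping groups. Its log2 difference was -0.10 (interval -0.28 to 0.07; limma adjusted p = 0.666). It was -0.06 without vehicle replicate 1 or without the muscle-rich pair, and -0.16 without vehicle replicate 2. Its 1 probe set was not set against separate transcripts, so the isoforms SREBP1a and SREBP1c cannot be told apart here. Thrsp, also called Spot 14, encodes a small protein that promotes lipid synthesis in liver, fat and mammary gland. It read 11.12, 11.25 and 11.18 in vehicle and 11.65, 11.30 and 11.40 in drug arrays. Drug replicate 1 stood above the rest, and drug replicate 2 lay close to the highest vehicle array. The Thrsp difference was 0.26 ± 0.10 (SE, n = 3 per group; limma adjusted p = 0.461), and its other probe set gave 0.33 ± 0.10 without overlap. Without drug replicate 1 the Thrsp difference was 0.16, and removal of both muscle-rich arrays also gave 0.16.

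**Figure D2:**
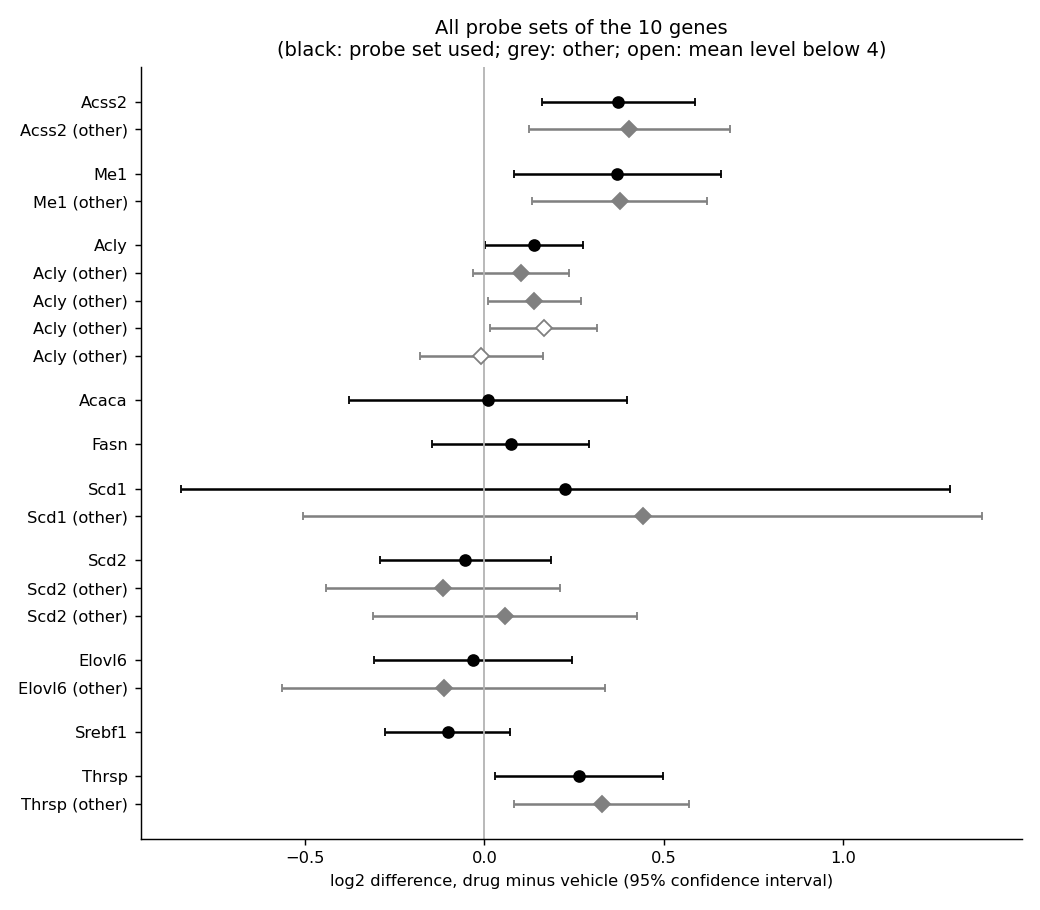
Log2 difference, drug minus vehicle (horizontal axis), with 95% confidence intervals for all 21 probe sets of the 10 genes, from the fit over all probe sets. Black circles are the probe sets used, grey diamonds the others, and open symbols those with a mean level below 4. Both probe sets of Acss2, Me1 and Thrsp lie above 0, and the 2 Scd1 probe sets have the widest intervals.

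As a group, 7 of the 10 members had higher and 3 lower means in the drug arrays, where 5938 of 12393 genes were higher and 6455 lower. The median difference of the members was 0.11, against -0.01 over all genes. This median rested on single arrays, since leaving out vehicle replicate 2 gave -0.0033. Leaving out drug replicate 2 gave 0.05, and leaving out vehicle replicate 3 gave 0.16.

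Beyond the members, 107 genes of neighbouring lipid pathways had been listed in 6 groups, and 90 were measured. None passed the adjusted threshold. Among 10 other genes of carbon and NADPH supply, 7 had higher means, and 2 had an unadjusted limma p under 0.05 with drug higher, against 5.37% of all genes. These were Idh1, the cytosolic NADP-dependent isocitrate dehydrogenase, and Acss1, the mitochondrial relative of Acss2. Idh1 read 9.04, 8.80 and 9.01 in vehicle and 9.40, 9.25 and 9.44 in drug arrays, and Acss1 read 8.81, 8.71 and 8.59 against 9.03, 8.93 and 9.16. Both had groups that did not overlap, and log2 differences of 0.41 ± 0.09 and 0.34 ± 0.09 (SE, n = 3 per group). Idh2, the mitochondrial counterpart of Idh1, lay the other way, with every drug array below every vehicle array and a difference of -0.15 ± 0.06. In this list groups did not overlap in 3 genes with drug higher and in 2 with drug lower, against 7.73% and 9.37% of all genes.

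A list of 17 other genes, mostly of elongation and desaturation, included the carboxylase gene Acacb and the malonyl transferase gene Mcat. Of the 17, 12 had higher means. The unadjusted limma p was under 0.05 with drug higher in 4, Acacb among them, against 5.37% of all genes. Fads3, a member of the fatty acid desaturase family, read 7.75, 7.75 and 7.71 in vehicle and 8.36, 8.06 and 7.96 in drug arrays. Scd3, a further stearoyl-CoA desaturase, had a difference of 0.26 ± 0.09, also without overlap. Acacb encodes the carboxylase whose malonyl-CoA restrains fatty acid oxidation. It had a difference of 0.52 ± 0.20 (SE, n = 3 per group), but drug replicate 3 at 7.07 lay below vehicle replicate 1 at 7.10. The list's median was 0.06.

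Genes that activate fatty acids and build glycerolipids had a median of 0.01, with 8 of 13 higher. At an unadjusted limma p under 0.05 there were 0, against 5.37% of all genes with drug higher and 4.91% with drug lower. Lpin1, a phosphatidate phosphatase, Dgat1, which makes triglyceride, and Gpam, the first acyltransferase, had differences of 0.22, 0.21 and 0.09. In Gpam alone the groups did not overlap, with drug higher, against 7.73% of all genes. Fatty acid oxidation genes had a median of 0.02, with 12 of 18 higher and 2 at an unadjusted limma p under 0.05 with drug higher, against 5.37% of all genes. These were Ehhadh, a peroxisomal enzyme, at 0.25 and Acadm, the medium-chain acyl-CoA dehydrogenase, at 0.14. Cpt1a, the gate to mitochondrial oxidation, had a difference of -0.15 with overlapping groups.

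The regulators listed beside Srebf1 and Thrsp include both activators and inhibitors of lipid synthesis, so a count gives no direction for the pathway. They leaned to lower means, with 12 of 16 lower and a median of -0.04. In 5 of them every drug array lay below every vehicle array, where 9.37% of all genes did so, and 3 had an unadjusted limma p under 0.05 with drug lower, against 4.91% of all genes. Nr1h3, which encodes the sterol-sensing receptor LXR alpha and is a known activator of Srebf1, read 5.58, 5.43 and 5.60 in vehicle and 5.19, 5.19 and 4.92 in drug arrays. The Nr1h3 groups were well apart, with a difference of -0.44 ± 0.09 (SE, n = 3 per group; limma adjusted p = 0.303). Nr1h3 is also expressed in macrophages. A list of 12 immune genes included T and B cell genes as well. Its mean log2 level was 7.50 to 7.68 in vehicle and 7.28 to 7.45 in drug arrays. Of these genes 11 were lower, while the macrophage gene Cd68 was higher, at a difference of 0.08. Csf1r and Adgre1, also macrophage genes, had differences of -0.32 and -0.38, and all of these macrophage genes had overlapping groups. The part of immune cells in the Nr1h3 value was not tested. Stk11, the kinase LKB1 upstream of AMPK, and Sp1 had differences of -0.18 and -0.13.

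Cholesterol synthesis and uptake genes, which SREBP2 controls, were split evenly, with 8 of 16 higher and a median of 0.01. Stard4, a sterol carrier, and Mvd, a mevalonate pathway enzyme, had differences of -0.46 ± 0.13 and -0.24 ± 0.10 (SE, n = 3 per group). In both, every drug array lay below every vehicle array, while Idi1, at 0.14, had every drug array above every vehicle array. In this list 2 genes with drug lower and 1 with drug higher had groups without overlap, against 9.37% and 7.73% of all genes.

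**Figure D3:**
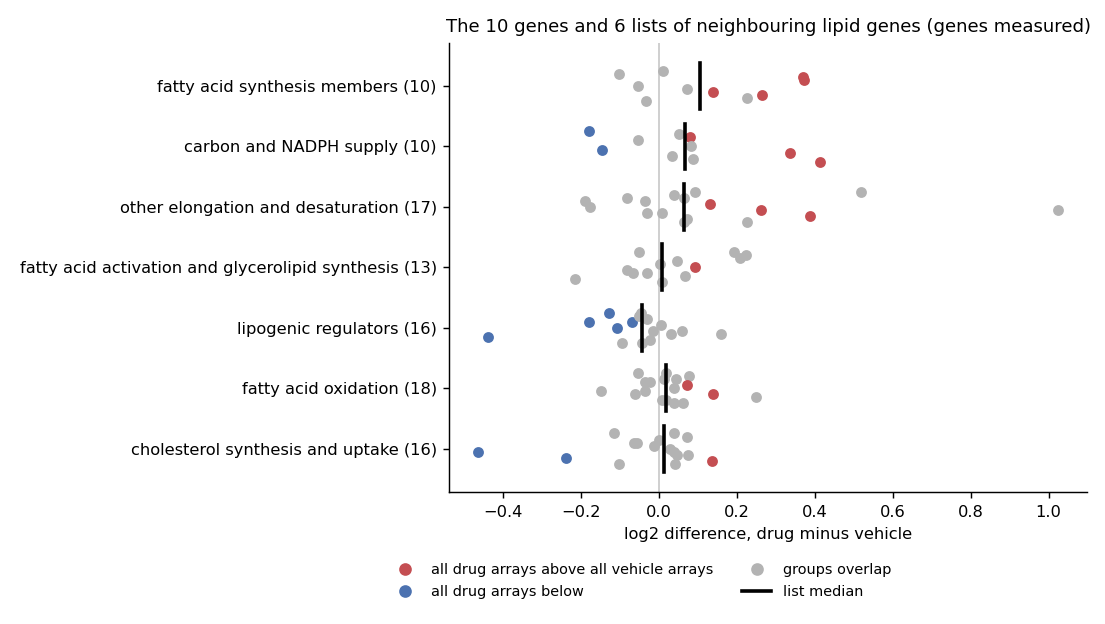
Log2 difference, drug minus vehicle (horizontal axis), of each measured gene in the 10-gene set and 6 lists of neighbouring lipid genes, with list medians as black bars. Red points are genes with all drug arrays above all vehicle arrays, blue points the reverse, and grey points genes whose groups overlap. The medians lie between -0.04 for the regulators and 0.11 for the 10 genes.

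Fat cells, secretory epithelium and muscle all contribute RNA to such tumors, and in bulk RNA fewer cells of a type and less RNA per cell cannot be told apart. Adipocyte transcript levels differed between arrays of the same group. The mean log2 level of 15 adipocyte markers was 6.81, 6.11 and 7.90 in vehicle and 6.81, 7.65 and 6.54 in drug arrays, and Adipoq, the adiponectin gene, ran from 3.40 in vehicle replicate 2 to 9.58 in vehicle replicate 3. Lep, the leptin gene, stayed below 4 on all 6 arrays. Of the 15 markers 7 had higher and 8 lower means in drug arrays, with a median of -0.02. Cebpa, an adipogenic factor, Adig and the lipase gene Pnpla2 had the smallest unadjusted p in the list, at differences of -0.18, 0.31 and -0.07.

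Scd1 was lowest in the array with the fewest adipocyte transcripts, vehicle replicate 2, but it was not highest in the richest. The Cidea gene, of a lipid droplet protein in brown fat and secretory mammary epithelium, read 7.50, 5.99 and 6.15 in vehicle and 7.27, 7.997 and 6.92 in drug arrays. It shared with Scd1 its high values in vehicle replicate 1 and drug replicate 2. The elongase gene Elovl3, named after its values were seen, was also highest in these arrays, at 5.99 and 6.02, and lay between 4.58 and 5.37 elsewhere. In vehicle replicate 3 the genes parted. Cidea at 6.15 and Elovl3 at 4.74 were low there, while the Scd1 probe set used read 10.78. Ucp1, the thermogenic protein of brown fat, read 3.48 to 3.74, and Zic1 and Ppargc1a had means below 4. Of the 7 brown fat markers 2 had higher means. Dio2, a deiodinase, had a difference of -0.22. With the adipocyte score as covariate the differences of Acss2, Me1, Thrsp and Acly were 0.38, 0.38, 0.27 and 0.14, close to those without it, and that of Scd1 was 0.18.

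Most secretory markers also had higher means in the drug arrays, by differing amounts. The mean log2 level of 16 alveolar genes was 9.43, 9.71 and 9.64 in vehicle and 10.07, 9.70 and 9.996 in drug arrays, so that drug replicates 1 and 3 lay above all vehicle arrays and drug replicate 2 did not. Of these 14 had higher means, 7 had groups that did not overlap and 6 had an unadjusted limma p under 0.05, all with drug higher, against 7.73% and 5.37% of all genes. The list's median was 0.24. Muc15, a milk fat globule mucin, Folr1, a folate receptor, and Olah, the thioesterase that ends Fasn's chains at medium length, had differences of 0.66, 0.53 and 1.25. Me1 and Thrsp, like the alveolar list, were lower in drug replicate 2 than in the other drug arrays, while Acss2 and Acly were highest there. The part of secretory cells in these differences was not tested.

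**Figure D4:**
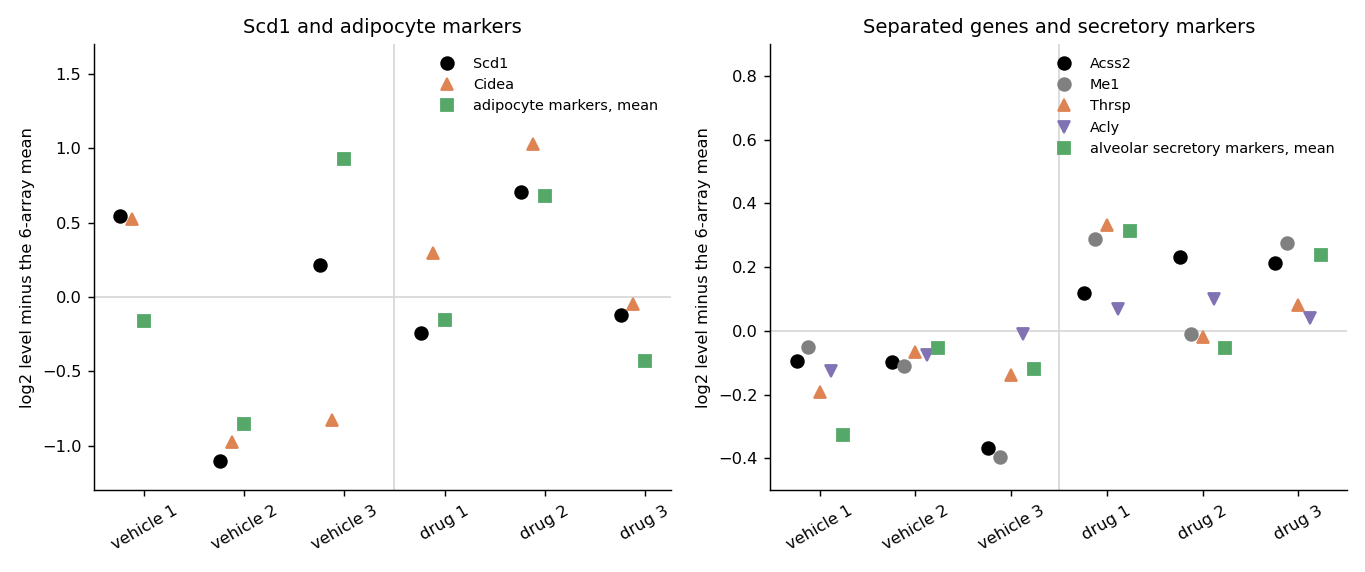
Log2 level minus the mean of the 6 arrays (vertical axes) for each array. The left panel shows Scd1, Cidea and the mean of 15 adipocyte markers, all low in vehicle replicate 2. Cidea is also low in vehicle replicate 3, where the adipocyte mean is highest. The right panel shows Acss2, Me1, Thrsp and Acly with the mean of 16 alveolar secretory markers, and both the markers and Me1 and Thrsp are lower in drug replicate 2 than in the other drug arrays.

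Muscle transcript levels varied widely between arrays of the same group. The mean log2 level of 16 muscle genes was 8.32, 6.66 and 10.36 in vehicle and 9.39, 5.23 and 4.67 in drug arrays, with all 16 lower in the drug mean, among them Myh7, Myl1 and Acta1 at -1.60, -2.89 and -3.06. With that muscle score in the model, the differences of Acss2, Me1, Thrsp and Acly were 0.29, 0.35, 0.34 and 0.15. Of 11 epithelial genes 8 had higher means, with Krt19, Cldn3 and Krt8 at 0.31, 0.16 and 0.09, and the list's median was 0.06. Of 10 fibroblast genes 8 had higher means, with Col3a1, Fap and Postn at 0.39, 0.14 and 0.32, all with overlapping groups. The 12 immune genes had a median of -0.25, and 3 had an unadjusted limma p under 0.05 with drug lower, against 4.91% of all genes. These were Ptprc, Coro1a and Cd3g, which had differences of -0.42, -0.38 and -0.46, without overlap. Cd3g had means of 4.1 in vehicle and 3.7 in drug arrays, where values may be close to background.

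Across the 6 arrays the mean of the 10 members, each centred on its own mean, was 0.03, -0.18 and -0.04 in vehicle and 0.01, 0.13 and 0.05 in drug arrays. Scd1 weighed most in this profile. Among named genes that are no member and have an SD over the 6 arrays of at least 0.3, the 5 most like it, by Pearson's r over the 6 arrays as a description, were Itgbl1 (r = 0.96), Acaa1b (0.94), Apoc1 (0.93), Mgll (0.91) and Smoc2 (0.91). Acaa1b encodes a peroxisomal thiolase, Apoc1 a lipoprotein component and Mgll a lipase that splits monoglycerides. Itgbl1, with the highest r, and Smoc2 are not lipid genes, so the 5 share no lipid theme. In all 5 of these genes vehicle replicate 2 was the lowest array. The fibroblast and adipocyte lists were lowest there too, at -0.62 and -0.86 relative to their 6-array means. The part of these cells in the profile was not tested.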

How the data were processed

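The authors' deposited table holds 1 log2 expression value per probe set and array, for 22690 probe sets on 6 arrays. Affymetrix Expression Console is the software named per the submitters' processing notes. How probe sets were summarised and normalized is not stated there, and the log2 scale was read from the range of the values, 1.88 to 14.14. Array medians were nearly equal (6.70 to 6.73), so no further normalization was applied. Arrays scaled alike cannot show a shift common to most genes.

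Gene symbols came from the array's annotation of 2016. Of the probe sets, 20380 had a single symbol and stood for 12393 genes, and each gene was represented by its probe set with the highest mean. Drug and vehicle were compared by the two-sided moderated test of limma 3.58.1 (R 4.3.3), and p-values were adjusted across the 12393 genes by Benjamini-Hochberg. The threshold was 0.05 and the model had no covariate. The procedure was run on simulated data with planted differences larger than that of any member. That run does not show what could be detected at the members' differences. A 3 against 3 exact permutation test has a smallest two-sided p of 0.1. The named genes were all members, up to 3 genes per list with the smallest unadjusted p, and 5 genes of like pattern (highest Pearson's r among genes with an SD of at least 0.3, predicted and unnamed transcripts left out). Csn2, Adipoq, Lep, Zic1, Ppargc1a, Elovl3, Mcat, Cd68, Csf1r and Adgre1 lie outside this rule and were named after their values were seen. The same holds for Csn1s1, Csn1s2a, Csn1s2b, Csn3, Wap, Lalba and Glycam1. Members and lists were chosen with earlier results of these data known. Alternatives are given in the closing section. Promoter sequences came from RefSeq (GRCm38.p6), and figures were drawn with matplotlib 3.10.9.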

Additional observations from a re-analysis of the deposited data

How the results depend on the processing

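Over 16 alternatives (probe set choice, level filter, normalization, variance model, array weights, marker scores as covariates and arrays left out, of which leaving out both adipocyte-rich arrays was chosen after seeing the data) no member passed limma's adjusted threshold. Acss2, Me1, Acly, Thrsp and Fasn kept a higher and Srebf1 a lower drug mean in all of them. The unadjusted p stayed under 0.05 in 16 for Acss2, 11 for Me1, 10 for Thrsp and 6 for Acly. With single arrays left out, genes passing over all genes numbered 0 to 3, the 3 without drug replicate 2. Members at an unadjusted p under 0.05 with drug higher numbered 1 to 3. They were 2 with the muscle covariate and 1 on removal of both muscle-rich arrays. The members' median ran from -0.0033 to 0.16, and on that removal was 0.16.

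With single arrays left out, list medians ran from 0.021 to 0.072 for supply, 0.025 to 0.11 for elongation, -0.02 to 0.051 for glycerolipid, -0.0895 to -0.028 for regulator, 0.012 to 0.0534 for oxidation and -0.0095 to 0.0331 for cholesterol genes. With the mean of all probe sets they were 0.038 for supply, -0.0098 for glycerolipid and -0.015 for regulator genes, and under the level filter 0.038 for glycerolipid genes. Removal of both muscle-rich arrays gave 0.022 for elongation, -0.0167 for oxidation and -0.039 for cholesterol genes. Removal of both adipocyte-rich arrays gave 0.018 for supply, -0.0145 for elongation and -0.073 for regulator genes. Differences changed sign with single arrays left out in Acaca (-0.14 to 0.14), Scd1 (-0.27 to 0.56), Scd2 (-0.13 to 0.024) and Elovl6 (-0.13 to 0.053), with array weights in Acaca (-0.016) and Elovl6 (0.026), and in other probe sets of Acly (-0.0084) and Scd2 (0.058). The cause was not tested. No paired analysis was possible because the labels give no replicate numbers and tie no vehicle tumor to a drug tumor. The numbers used here follow accession order and only name samples. With 3 arrays a group, precision is limited by their number.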
